A study of Mus musculus with 8 samples.

Results

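The 33 astrocyte marker genes described here are genes that astrocytes of the mouse brain express strongly, and they were taken by symbol. Their list and the other gene lists below were chosen with earlier results of these data known, so the counts of genes called in them are descriptions. Each of the 33 symbols matched 1 of the 45706 genes of the count table, and all 33 passed the filter on low counts that left 17000 genes for testing. The libraries hold RNA of the mouse arcuate nucleus, the part of the hypothalamus that contains AgRP neurons. In translating ribosome affinity purification (TRAP), antibodies to GFP capture ribosomes that hold RpL10a-GFP from homogenised tissue. RNA recovered with these ribosomes makes the immunoprecipitate (IP) library, and the input library is RNA of the whole homogenate.

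Both fractions, 4 IP libraries and 4 input libraries, came from 1 genotype, Mff fl/fl; AgRP-IRES-Cre tg/wt; RpL10a-GFP fl/wt. In these animals Cre, expressed from the Agrp locus, both deletes Mff, the gene of mitochondrial fission factor, and switches on the tagged ribosomal protein. Every library was a pool of 3 mice of mixed sexes, 11 to 12 weeks old and killed in the random-fed state. All animals carried the deletion, which Cre makes in AgRP neurons, so its effect is not measured here. Control genotype libraries are not analysed here, nor is an IP from tissue without the tagged ribosome. The labels do not say whether the IP and the input with 1 number came from the same pool.

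Astrocytes are glial cells that take up glutamate and potassium released by neurons, buffer water and ions at blood vessels, form networks through gap junctions and supply neurons with metabolites and lipoproteins. In the arcuate nucleus their processes ensheath AgRP neurons and their cell bodies lie among the neurons. Tanycytes, the glia that line the floor of the third ventricle, share several of these genes, so the list does not mark astrocytes alone. Cre in AgRP neurons leaves astrocyte ribosomes untagged, and the levels of these genes in the IP can therefore be read beside their levels in the tissue. How much of their RNA in the IP came from the surrounding tissue and how much from AgRP neurons themselves cannot be told apart.

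Libraries held 39.9 to 74.6 M estimated counts, and the lowest count of any member in any library was 151. For Agrp the level was 802, 801, 682 and 1082 CPM in IP replicates 1 to 4, against 2.64, 3.34, 3.05 and 4.37 CPM in input replicates 1 to 4. CPM here is a count relative to the total of its library, scaled by TMM factors. Mff, the targeted gene, was detected in all 8 libraries, at 63.9 to 71.1 CPM in IP and 112 to 132 CPM in input. Counts are per gene, so deleted and remaining exons cannot be told apart, and the source of the Mff reads in IP was not tested. IP replicate 3 stood apart: between IP libraries, chi-square divided by its degrees of freedom was 222.5 to 329.1 in pairs with it and 47.1 to 60.2 in pairs without it. It had the lowest Agrp level of the IP libraries, and the counts of whole lists below are given with and without it.

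Astrocyte marker genes were lower in IP than in input. Of the 33 genes, 30 fell and 0 rose, with 3 not past the threshold, set at 0.05 for p-values of edgeR's quasi-likelihood test adjusted over all 17000 tested genes. Over all tested genes 20.9% were called lower and 24.5% higher, or 3545 and 4171 genes, and with upper quartile factors in place of TMM 4384 were lower and 3342 higher. The median log2 fold change of the 33 genes was -1.57, beside -0.01 over all tested genes, and it ran from -2.28 for Sparcl1 to 0.19 for Slc7a10. In 25 of the 30 the fall was at least 2-fold, where 12.3% of all tested genes fell that far, and 4 of these fell at least 4-fold. These numbers were 27 and 8 without IP replicate 3. No share over all tested genes is given for falls of 4-fold, or of 2-fold without that library. In 30 genes the 4 IP values lay below every input value, against 24.0% of all tested genes, and in the other 3 the groups overlapped. Without IP replicate 3 the numbers were again 30 lower and 0 higher, with a median of -1.65. Over all 17401 genes tested in that fit, 4230 were lower and 4508 higher. The fall compares the IP with the whole homogenate, and it measures neither the number of astrocytes nor the RNA in each of them.

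Summed over the 33 genes, the level was 3084, 3346, 3749 and 3285 CPM in IP replicates 1 to 4, against 8717, 8957, 7846 and 9902 CPM in input replicates 1 to 4. The highest IP library was thus below the lowest input library. The mean was 3366 ± 279 CPM in IP and 8856 ± 845 CPM in input (SD, n = 4 each), so the IP held 38.0% of the input level, or 36.6% without IP replicate 3. As shares of all counts in a library, the 33 genes took 0.316% to 0.402% in IP and 0.765% to 0.940% in input. Ribosomal RNA and mitochondrial genes took 22.2% to 25.3% of counts in IP replicates 1, 2 and 4 and 13.2% in IP replicate 3, against 37.3% to 41.9% in input. With these genes left out of the totals the summed level in IP was 38.3% of input. The median gene stood at 33.5% of its input level, with a range of 20.6% to 114.4%.

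**Figure D1:**
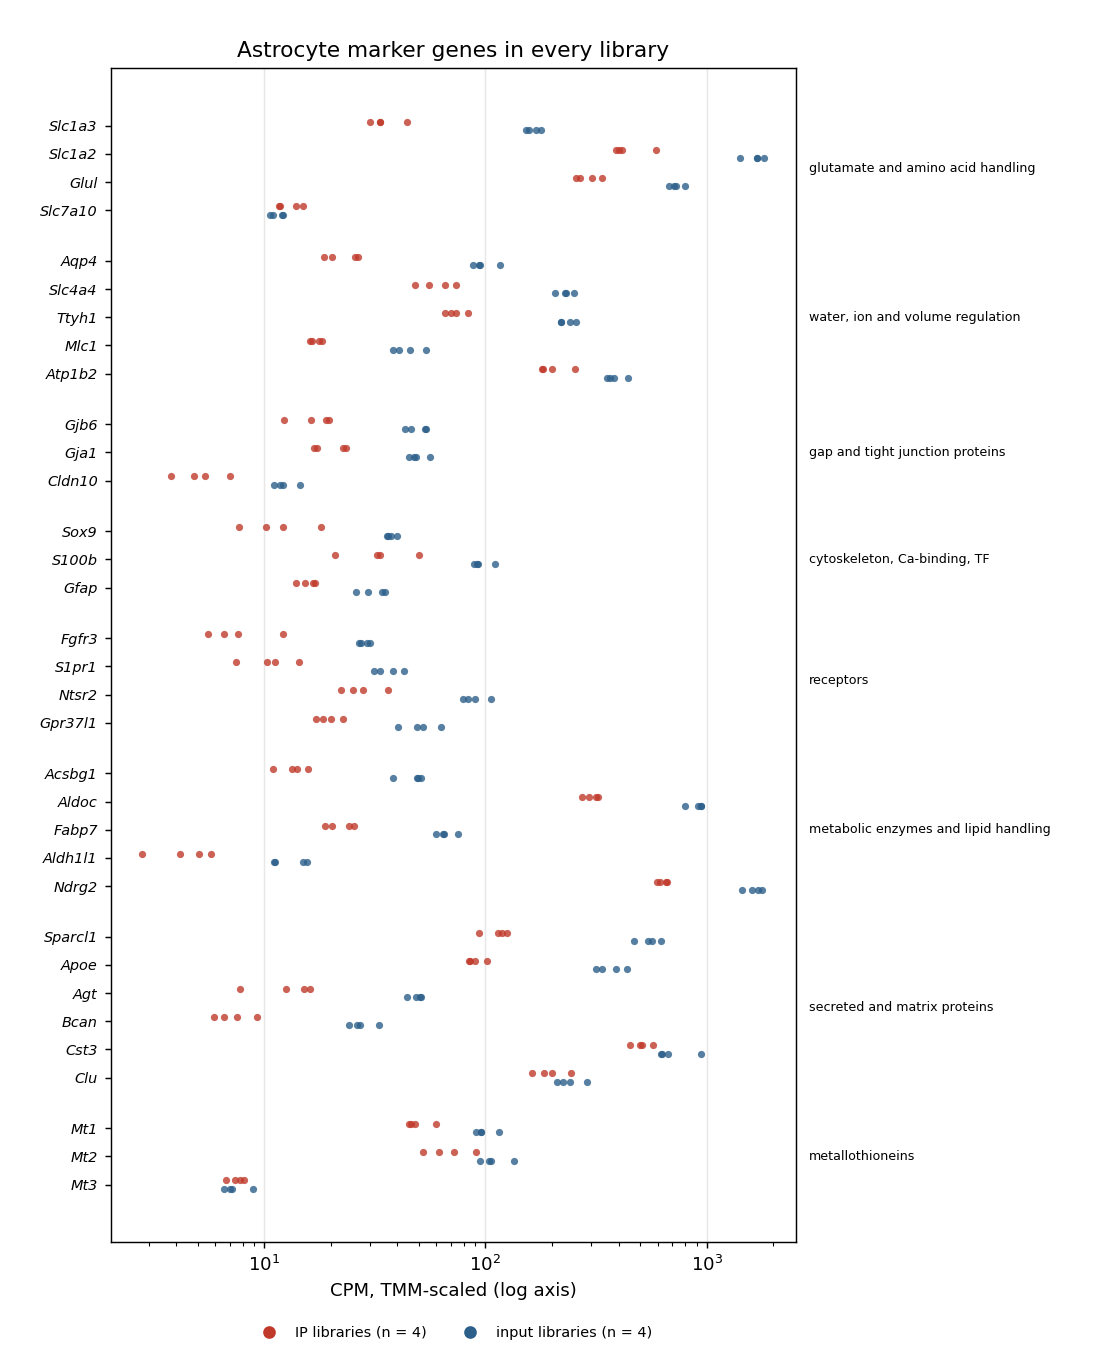
Level of each of the 33 astrocyte marker genes in every library (TMM-scaled CPM, log axis), grouped by role, with the 4 IP libraries in red above the 4 input libraries in blue. IP points lie left of all input points for 30 genes and overlap them for Slc7a10, Clu and Mt3.

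Genes of glutamate handling included some of the largest falls. Slc1a3 encodes the glutamate transporter GLAST (ENSMUSG00000005360, chromosome 15, 8634124 to 8710764, minus strand, GRCm38). It had 33.4, 30.1, 44.4 and 33.5 CPM in IP replicates 1 to 4, against 156.8, 169.5, 151.8 and 179.1 CPM in input replicates 1 to 4. Its log2 fold change was -2.22 ± 0.12 (SE, n = 4 libraries per fraction; adjusted p = 9.70e-08 in edgeR), and its IP values were 21.5% of input on average. Slc1a2 encodes GLT-1, the main glutamate transporter of the adult forebrain (chromosome 2, 102658659 to 102790784, plus strand). It had 388, 416, 589 and 402 CPM in IP replicates 1 to 4 against 1683, 1689, 1421 and 1825 CPM in input replicates 1 to 4. IP replicate 3 was the highest of the IP libraries for both transporters and still lay far below every input library. The fall of Slc1a2 was -1.88 ± 0.13, or -2.04 without that library (adjusted p = 7.33e-07 with all libraries, edgeR).

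Within a library the ratio of Slc1a2 to Slc1a3, which does not depend on scaling, averaged 12.7 ± 1.04 in IP and 10.1 ± 0.57 in input (SD, n = 4 each). All 4 IP ratios were above all 4 input ratios. The 2-sided exact permutation p was 0.0286, the smallest that 70 arrangements of 8 libraries allow, and 0.0476 adjusted over the 5 pairs of related genes compared here. These pairs were chosen after the values were seen. Glul, the gene of glutamine synthetase, which turns glutamate into glutamine, fell by 1.32 on the log2 scale (SE 0.09) to 291 ± 37 CPM in IP, against 728 ± 51 CPM in input. Glul has fractional counts in all 8 libraries, as happens when reads also fit other transcripts.

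The remaining member of this group, Slc7a10, behaved differently from the other 3. It encodes Asc-1, a transporter of small neutral amino acids that carries D-serine and glycine (ENSMUSG00000030495, chromosome 7, 35186385 to 35201114, plus strand). Its level was 11.7, 13.9, 11.8 and 15.0 CPM in IP replicates 1 to 4, against 12.1, 10.7, 10.9 and 12.1 CPM in input replicates 1 to 4. The groups overlapped, and its log2 fold change was 0.19 ± 0.14 (adjusted p = 0.287, edgeR). Lrp3, a receptor gene on the opposite strand, overlaps Slc7a10 and averaged 21.4 ± 4.61 CPM in IP against 14.6 ± 0.43 CPM in input (SD, n = 4 each). No strand setting is given, and Slc7a10 had fractional counts in all 8 libraries, so its count is uncertain. The part of Lrp3 reads in it was not tested.

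All 5 genes of water, ion and volume regulation fell. Aqp4, the water channel of astrocyte endfeet, had 18.6, 20.2, 26.5 and 25.8 CPM in IP replicates 1 to 4, against 93.8, 94.6, 87.9 and 116.3 CPM in input replicates 1 to 4. The groups were far apart, with a log2 fold change of -2.11 ± 0.14 (adjusted p = 3.61e-07, edgeR). Slc4a4, a sodium bicarbonate cotransporter gene, stood at -1.92 ± 0.12 and Ttyh1, a gene of the tweety family of anion channels, at -1.68 ± 0.09. Mlc1, whose product lies in endfoot junctions and is mutated in a leukoencephalopathy with cysts, stood at -1.38 ± 0.12. The smallest fall was that of Atp1b2, a beta subunit gene of the sodium pump, at 180, 200, 254 and 182 CPM in IP replicates 1 to 4 against 367, 381, 354 and 439 CPM in input replicates 1 to 4. Even here each IP value was below each input value, and the log2 fold change was -0.92 ± 0.11 (adjusted p = 5.55e-05, edgeR).

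Junction genes fell by similar amounts. The gap junction genes of astrocytes are Gja1, which encodes connexin 43, and Gjb6, which encodes connexin 30. Gja1 averaged 20.0 ± 3.4 CPM in IP and 49.3 ± 4.6 CPM in input, a log2 fold change of -1.30 ± 0.13. Gjb6 averaged 16.8 ± 3.3 CPM in IP and 49.3 ± 5.3 CPM in input, a log2 fold change of -1.56 ± 0.15. The ratio of Gja1 to Gjb6 was 1.21 ± 0.16 in IP and 1.01 ± 0.08 in input (SD, n = 4 each), and this difference did not pass the threshold (exact permutation p = 0.0857, adjusted over the 5 pairs 0.0857). Cldn10, a claudin gene, was among the least abundant members, with 3.79 to 7.01 CPM in IP against 11.0 to 14.5 CPM in input, and fell by 1.23 on the log2 scale (SE 0.20).

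Gfap encodes the intermediate filament protein most used to stain astrocytes (ENSMUSG00000020932, chromosome 11, 102887336 to 102900912, minus strand). It had 13.9, 16.6, 15.3 and 17.0 CPM in IP replicates 1 to 4, against 29.4, 35.3, 26.1 and 34.2 CPM in input replicates 1 to 4. Its log2 fold change of -0.99 ± 0.13 (adjusted p = 6.70e-05, edgeR) was one of the smaller falls of the list, and IP libraries held 50.3% of the input level. Sox9, a transcription factor gene of astrocyte development, had 7.69, 10.1, 18.03 and 12.1 CPM in IP replicates 1 to 4 against 39.8, 36.0, 36.3 and 37.3 CPM in input replicates 1 to 4. S100b, a calcium-binding protein gene, had 21.0, 33.5, 50.1 and 32.4 CPM in IP replicates 1 to 4 against 92.7, 88.4, 91.6 and 110.4 CPM in input replicates 1 to 4. For both, IP replicate 3 was the highest and IP replicate 1 the lowest of the IP libraries, and the input values were close together. The log2 fold change of Sox9 was -1.64 ± 0.22 with all libraries and -1.90 without IP replicate 3. That of S100b was -1.48 ± 0.21, and -1.73 without that library. S100b lies across Dip2a on the opposite strand, which averaged 24.6 ± 2.88 CPM in IP and 52.6 ± 4.90 CPM in input; its part in S100b was not tested.

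All 4 receptor genes fell. Fgfr3, a fibroblast growth factor receptor gene, had 5.57, 7.59, 12.2 and 6.56 CPM in IP replicates 1 to 4, against 29.1, 27.5, 26.8 and 30.0 CPM in input replicates 1 to 4. IP replicate 3 held 1.85 times the mean of the other IP libraries, the largest such ratio of the 33 genes. The log2 fold change was -1.83 ± 0.22 (adjusted p = 3.77e-05, edgeR), and -2.11 without that library. S1pr1, a sphingosine 1-phosphate receptor gene, stood at -1.74 ± 0.19, Ntsr2, a neurotensin receptor gene, at -1.68 ± 0.15, and Gpr37l1, an orphan receptor gene, at -1.38 ± 0.14.

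**Figure D2:**
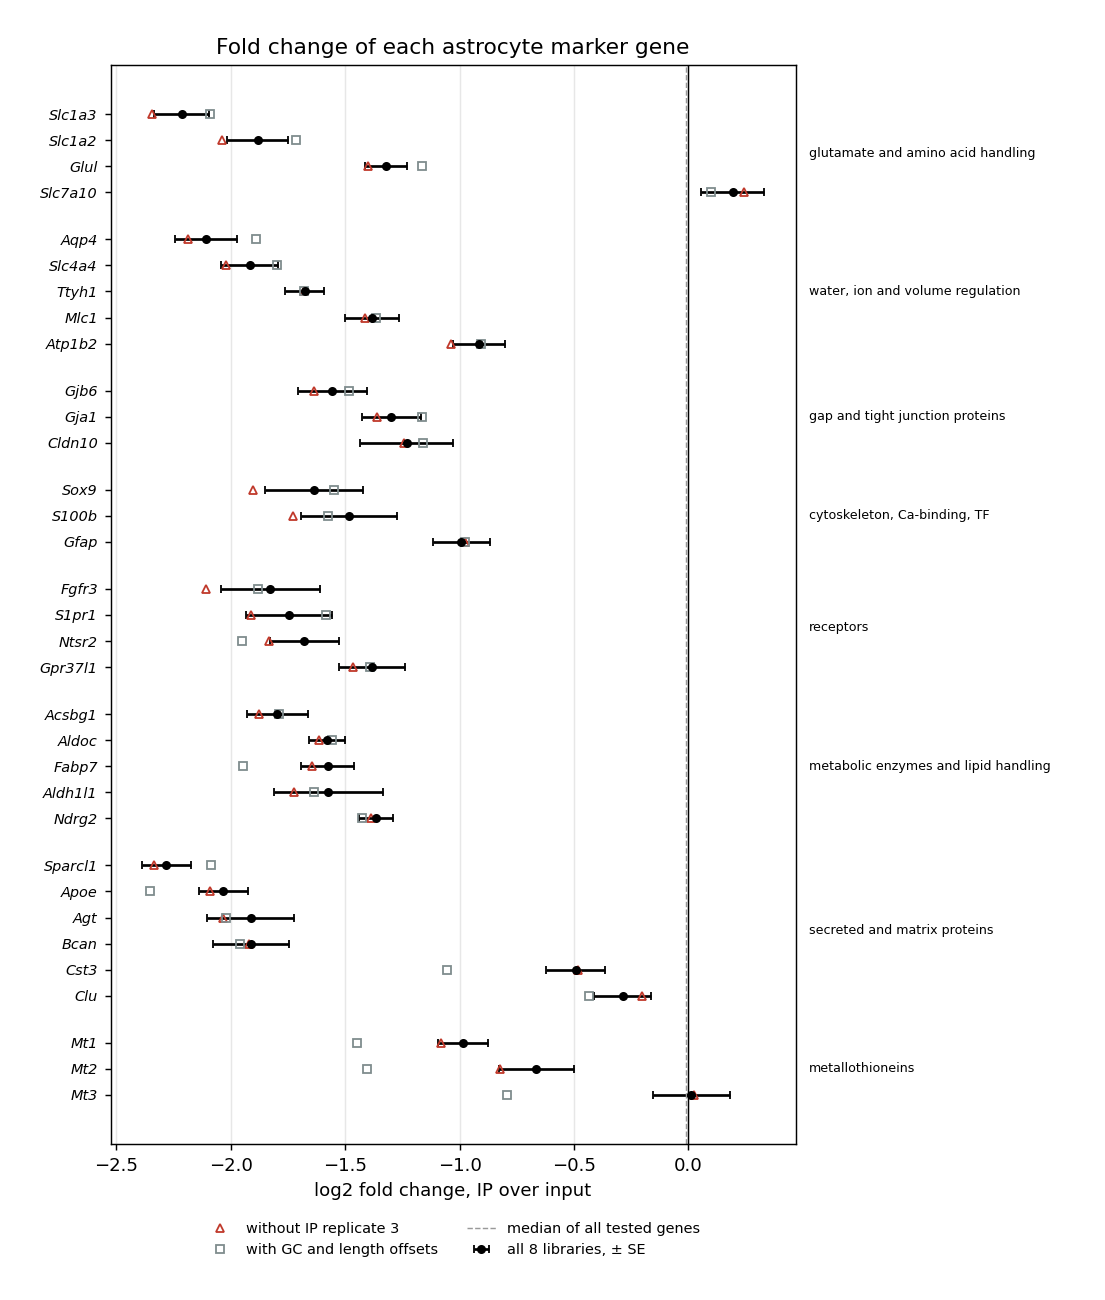
Log2 fold change of IP over input for each of the 33 genes (black, ± SE, all 8 libraries), without IP replicate 3 (red triangles) and with offsets for GC content and transcript length (grey squares). All but Slc7a10 and Mt3 lie below 0 in each fit, and Mt3 stands at 0.01 without offsets and at -0.79 with them.

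The 5 genes of metabolism fell by similar amounts. Ndrg2, a gene of the N-myc downstream regulated family, had 618, 653, 663 and 598 CPM in IP replicates 1 to 4, against 1597, 1781, 1443 and 1707 CPM in input replicates 1 to 4. Its IP libraries were close to each other, and its log2 fold change was -1.37 ± 0.07 (adjusted p = 1.07e-07, edgeR). Aldoc, the gene of the glycolytic enzyme aldolase C, averaged 301 ± 23 CPM in IP and 899 ± 69 CPM in input, a log2 fold change of -1.58 ± 0.08. Acsbg1, an acyl-CoA synthetase gene, stood at -1.80 ± 0.13 and Fabp7, a fatty acid binding protein gene, at -1.58 ± 0.12. Aldh1l1, a folate enzyme gene whose promoter drives many astrocyte reporter lines, was the least abundant member per length. It had 2.79, 5.06, 5.74 and 4.14 CPM in IP replicates 1 to 4, against 11.0, 15.6, 11.2 and 15.0 CPM in input replicates 1 to 4, with no overlap and a log2 fold change of -1.57 ± 0.24.

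Secreted and matrix protein genes spanned nearly the whole range of the list. Sparcl1, which encodes the synapse-promoting matrix protein hevin (chromosome 5, 104079111 to 104113733, minus strand), had the lowest log2 fold change of the list with all libraries. Without IP replicate 3 that of Slc1a3 was lower (-2.34, against -2.33 for Sparcl1), and with GC and length offsets that of Apoe was (-2.35, against -2.09). It had 93.8, 118.3, 125.7 and 114.5 CPM in IP replicates 1 to 4, against 543, 563, 470 and 622 CPM in input replicates 1 to 4. The log2 fold change was -2.28 ± 0.11 (adjusted p = 4.34e-08, edgeR), and the IP held 20.6% of the input level. Apoe, the gene of the main lipoprotein of the brain, followed with -2.03 ± 0.11, at 90.5 ± 7.9 CPM in IP and 370 ± 54 CPM in input. Agt, which encodes angiotensinogen, stood at -1.91 ± 0.19, and Bcan, the gene of the proteoglycan brevican, at -1.91 ± 0.17.

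Cst3 and Clu, also of this group, differed little between the fractions. Cst3 encodes cystatin C, a secreted protease inhibitor (chromosome 2, 148871722 to 148875692, minus strand). It had 451, 511, 500 and 572 CPM in IP replicates 1 to 4, against 669, 626, 625 and 942 CPM in input replicates 1 to 4. The IP values were close to the lower input values without reaching them, and input replicate 4 was well above the rest. The log2 fold change was -0.49 ± 0.13 (adjusted p = 0.00899, edgeR). It was -0.32 without input replicate 4 (adjusted p = 0.0097, edgeR) and -1.06 with offsets for GC content and transcript length (adjusted p = 2.94e-05, edgeR).

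Clu encodes clusterin, a secreted chaperone that some neurons also make (chromosome 14, 65968483 to 65981547, plus strand). Its values were 199, 184, 163 and 243 CPM in IP replicates 1 to 4 and 241, 224, 211 and 286 CPM in input replicates 1 to 4. The groups overlapped, and the log2 fold change of -0.29 ± 0.13 did not pass the threshold (adjusted p = 0.0833, edgeR). Clu passed it as lower under 7 of 19 alternatives, among them offsets for GC content and length (-0.43, adjusted p = 0.0114), a replicate block (-0.29, adjusted p = 0.00341) and the fit without IP replicate 4 (-0.40, adjusted p = 0.0165), all in edgeR. Without input replicate 4 it was -0.18 (adjusted p = 0.264, edgeR).

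The metallothionein genes encode small cysteine-rich proteins that bind zinc and copper, and they lie side by side on chromosome 8. Mt1 and Mt2 are induced by metals and glucocorticoids in many cell types, whereas Mt3 is expressed mainly in brain, in astrocytes and in neurons rich in vesicular zinc. Metal induction of Mt1 and Mt2 acts through metal response elements bound by the factor MTF1. The promoter windows of the 3 genes are shown as a description, and their part in the levels was not tested. They are RefSeq sequences of GRCm38.p6, from 250 bases before to 50 bases after a start site, and capitals mark the element core, TGCACNC or TGCGCNC, on either strand, where N is any base.
Mt1, chr8:94178839-94179138, plus strand: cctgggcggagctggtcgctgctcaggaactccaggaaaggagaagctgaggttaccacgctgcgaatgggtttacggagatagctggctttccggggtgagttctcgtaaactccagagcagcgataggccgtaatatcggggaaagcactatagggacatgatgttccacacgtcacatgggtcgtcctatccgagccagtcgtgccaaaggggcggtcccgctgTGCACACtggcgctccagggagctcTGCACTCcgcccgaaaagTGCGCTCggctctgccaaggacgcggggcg
Mt2, chr8:94172368-94172667, plus strand: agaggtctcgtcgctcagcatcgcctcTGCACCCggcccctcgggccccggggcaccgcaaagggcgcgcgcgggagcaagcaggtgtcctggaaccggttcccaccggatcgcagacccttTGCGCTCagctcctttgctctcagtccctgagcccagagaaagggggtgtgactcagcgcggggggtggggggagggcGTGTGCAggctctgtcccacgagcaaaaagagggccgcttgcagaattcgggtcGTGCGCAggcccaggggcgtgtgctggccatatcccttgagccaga
Mt3, chr8:94152357-94152656, plus strand: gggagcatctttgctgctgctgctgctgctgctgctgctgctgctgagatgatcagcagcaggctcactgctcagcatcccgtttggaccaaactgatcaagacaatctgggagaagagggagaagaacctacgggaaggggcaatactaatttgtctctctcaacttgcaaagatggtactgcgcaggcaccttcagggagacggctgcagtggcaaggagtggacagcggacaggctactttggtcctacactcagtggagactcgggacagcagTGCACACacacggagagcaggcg
The core letters occurred 3 times in the Mt1 window, 4 times in that of Mt2 and 1 time in that of Mt3. Of all 32851 windows in the RefSeq table, 25.7% held them at least 1 time, against 22.9% of the 35 windows of members (8 windows, of 8 genes). A match describes letters and is no evidence of binding.

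Mt1 had 45.4, 48.1, 59.8 and 46.1 CPM in IP replicates 1 to 4, against 95.1, 90.2, 95.1 and 114.7 CPM in input replicates 1 to 4. The groups did not overlap, and the log2 fold change was -0.99 ± 0.11 (adjusted p = 2.35e-05, edgeR). Mt2 had 52.1, 61.7, 90.8 and 72.4 CPM in IP replicates 1 to 4, against 94.1, 106.4, 103.4 and 135.2 CPM in input replicates 1 to 4. IP replicate 3 came close to the lowest input library, and the log2 fold change was -0.66 ± 0.16 (adjusted p = 0.0061, edgeR), or -1.40 with offsets for GC content and length. Mt3 had 8.10, 6.71, 7.36 and 7.79 CPM in IP replicates 1 to 4, against 7.18, 7.03, 6.61 and 8.86 CPM in input replicates 1 to 4. These overlapped, with a log2 fold change of 0.01 ± 0.17 (adjusted p = 0.958, edgeR). With the offsets Mt3 was called lower, at -0.79 (adjusted p = 0.00208, edgeR).

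Ratios to Mt3 within a library differed between the fractions. The ratio of Mt1 to Mt3 was 5.60, 7.17, 8.12 and 5.92 in IP replicates 1 to 4, against 13.2, 12.8, 14.4 and 12.9 in input replicates 1 to 4. That of Mt2 to Mt3 was 6.43, 9.20, 12.3 and 9.30 in IP replicates 1 to 4, against 13.1, 15.1, 15.7 and 15.3 in input replicates 1 to 4. Both ratios were lower in every IP library than in every input library (exact permutation p = 0.0286, adjusted over the 5 pairs 0.0476). This p is the smallest that 70 arrangements allow. The pairs were chosen after the values were seen and share genes, so these p-values are descriptions. The ratio of Mt1 to Mt2 averaged 0.74 ± 0.11 in IP and 0.91 ± 0.08 in input, a difference that did not pass the threshold (exact permutation p = 0.0857, adjusted 0.0857; n = 4 each).

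Partial and full sites of the NFI factors (TTGGCA for the partial one) and the SOX letters ACAATG were searched on both strands as well, since NFIA and SOX9 act in astrocyte development. A full site can contain the partial one. The partial NFI site was in 4 of 35 member windows (11.4%), those of Aldoc, Apoe, Mt1 and S100b, against 14.1% of all windows. The SOX letters were in 1 of 35 (2.86%), that of Apoe, against 12.6%, and the full NFI site in 0 of 35, against 0.0365%. The windows of Gfap and Slc1a3 held none of these letters.

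Shorter transcripts fell less than longer ones in this list. Across the 33 genes the Spearman correlation of the log2 fold change with the length of the longest coding transcript was -0.54, and that with GC content was 0.32. These are descriptions over genes that share the same 8 libraries. The shortest transcripts were those of Mt2 (511 bases), Mt3 (536), Cst3 (860) and Fabp7 (880). Offsets that remove the average trend with GC content and length in each library moved Mt1, Mt2, Mt3, Cst3, Fabp7 and Apoe further down and left the median at -1.56. With them 32 of the 33 genes were called lower, all but Slc7a10. Over all 17000 genes tested in that fit, 3274 were lower and 4290 higher. The part of fragment length or of RNA quality in this trend was not tested.

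**Figure D3:**
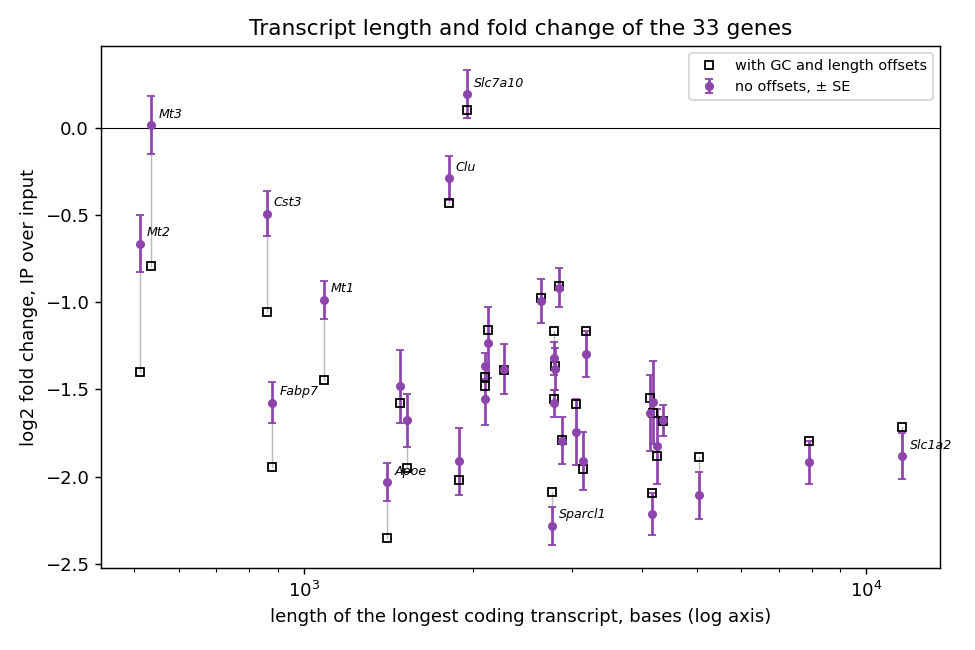
Log2 fold change of IP over input against the length of the longest coding transcript (bases, log axis) for the 33 genes, without offsets (purple, ± SE) and with offsets for GC content and length (open squares). Mt2, Mt3, Cst3 and Mt1 move down with the offsets, while Slc7a10 and Clu change little.

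Per length, the Spearman correlation of the 33 levels between the fractions was 0.94, a description over genes, and ranks moved by up to 9 places. In CPM per kilobase of transcript, Cst3 was the most abundant member with 591 in IP and 832 in input, followed by Ndrg2 with 301 in IP and 776 in input. Aldoc had rank 5 in IP, at 108 CPM per kilobase, and rank 3 in input, at 323. Mt2 had rank 3 in IP, at 136, and rank 6 in input, at 215. Clu had rank 4 in IP, at 109, and rank 10 in input, at 133. The largest moves were those of Mt3, with rank 16 in IP and rank 25 in input, and Slc7a10, with rank 22 in IP and rank 31 in input. At the other end Aldh1l1 was the lowest in both, with 1.06 in IP and 3.17 in input.

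The makeup of the summed level shifted accordingly. Slc1a2 made up 13.2% ± 1.6 of the summed CPM of the 33 genes in IP and 18.7% ± 0.52 in input (SD, n = 4 each). Sparcl1 made up 3.35% ± 0.22 in IP and 6.20% ± 0.14 in input. Cst3 made up 15.2% ± 1.7 in IP and 8.04% ± 1.1 in input, and Clu 5.92% ± 1.3 in IP and 2.71% ± 0.16 in input. Ndrg2 had nearly equal shares, 18.9% ± 1.1 in IP and 18.5% ± 1.1 in input. Together the 5 members with the highest input CPM, Slc1a2, Ndrg2, Aldoc, Glul and Cst3, held 64.8% of the IP sum and 63.6% of the input sum.

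IP libraries differed from each other more than input libraries did. The median coefficient of variation over the 33 genes was 17.0% in IP and 11.0% in input, and it was larger in IP for 25 genes. IP replicate 3 had the highest IP level for 24 genes, and IP replicate 1 the lowest for 18. Over all tested genes, the median ratio of IP replicate 3 to the mean of the other IP libraries was 0.96. As percent of each gene's mean in input, the median over the 33 genes was 28.5, 35.03, 40.8 and 31.3 in IP replicates 1 to 4, and 97.9, 97.8, 89.3 and 113.8 in input replicates 1 to 4. Input replicate 4 was thus the highest input library, with the highest input level for 27 genes, and input replicate 3 the lowest for 24. These counts of genes are given without shares over all tested genes, so they cannot be read as particular to the list.

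**Figure D4:**
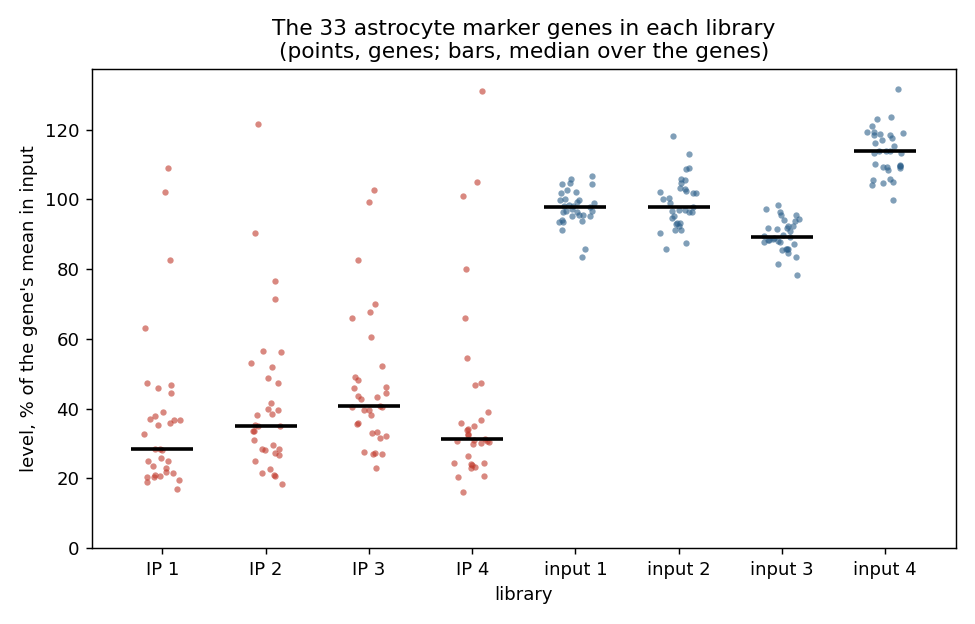
Level of each astrocyte marker gene in each library as percent of its mean over the 4 input libraries (points, 33 genes; bars, median over genes). Medians are 28.5 to 40.8% in IP libraries and 89.3 to 113.8% in input libraries, and IP replicate 3 is the highest IP library.

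By summed level, some lists of other cell types were also highest in IP replicate 3 among the IP libraries, and others were not. The summed level of 14 oligodendrocyte genes was 639, 729, 942 and 783 CPM in IP replicates 1 to 4, against 2284, 2433, 2264 and 2859 CPM in input replicates 1 to 4. For 11 endothelial genes it was 10.0, 13.3, 28.2 and 11.8 CPM in IP replicates 1 to 4, against 20.1, 20.8, 23.6 and 18.4 CPM in input replicates 1 to 4. For 13 general neuronal genes the values were 5050, 5334, 5666 and 5201 CPM in IP replicates 1 to 4, against 8247, 8797, 8127 and 8325 CPM in input replicates 1 to 4. For 13 microglia genes that library held 1.21 times the mean of the other IP libraries. In contrast, 10 oligodendrocyte precursor genes summed to 215, 231, 229 and 228 CPM in IP replicates 1 to 4. For 14 tanycyte and ependymal genes the sums were 53.6, 56.9, 54.2 and 57.4 CPM, so neither sum was highest in replicate 3. By the median gene, as percent of its mean in input, both lists were highest there. The precursor medians were 23.9, 29.4, 36.1 and 27.1% in IP replicates 1 to 4. Those of tanycyte and ependymal genes were 37.7, 50.0, 51.0 and 41.8%. The part of other cell types in the level of astrocyte genes in that library was not tested.

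A second list held 46 other astrocyte genes, in groups like those of the first. Of these, 41 fell, 1 rose and 4 (Fxyd1, Lcat, Chrdl1 and Lgr6) did not pass the threshold, and without IP replicate 3 the numbers were 42 lower and 1 higher. The median was -1.72, or the IP median gene at 30.3% of input. All 6 genes of transmitter handling, all 10 of metabolism and all 7 transcription factor genes fell, as did 5 of 6 ion and water genes, 5 of 6 receptor genes and 8 of 11 secreted protein genes. Without IP replicate 3 these were 5 of 6 for transmitter handling, 6 of 6 for ion and water and 9 of 11 for secreted protein genes, with the other groups at the same counts. With all libraries the largest falls were those of Elovl2, a fatty acid elongase gene (-2.50 ± 0.26), Htra1, a secreted protease gene (-2.33 ± 0.22), Etnppl, a phospholyase gene (-2.30 ± 0.12), and Phgdh, the first enzyme gene of serine synthesis (-2.17 ± 0.16). Elovl2 was again the lowest (-2.54) without IP replicate 3, followed by Slc14a1 (-2.48), Cpt1a (-2.44) and Grm3 (-2.39). Cspg5, the gene of the proteoglycan neuroglycan C, rose to 39.2 ± 3.2 CPM in IP, against 28.8 ± 2.5 CPM in input, a log2 fold change of 0.45 ± 0.10 (adjusted p = 0.00334, edgeR).

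Genes induced in reactive astrocytes did not move as one. Of 16 listed genes 12 were tested, and 5 fell (Cp, Cd44, Aspg, Emp1 and Serping1), 2 rose and 5 did not pass the threshold, with a median of -0.72. Without IP replicate 3 the numbers were 7 lower and 3 higher with a median of -1.21, and with a replicate block the median was -1.20. Emp1 had 0 CPM in all 4 IP libraries and 0.291 to 0.558 CPM in input. Aspg had 0 to 0.189 CPM in IP and 0.309 to 0.768 CPM in input. Both passed the filter on low counts through their input values, so only a fall could be called for them. Serpina3n, a serine protease inhibitor gene, had 525, 619, 469 and 633 CPM in IP replicates 1 to 4, against 12.5, 13.6, 12.3 and 12.6 CPM in input replicates 1 to 4. This was a log2 fold change of 5.46 ± 0.11 (adjusted p = 2.39e-10, edgeR), and the gene made up nearly all of the list's summed IP level. The other gene that rose was Timp1, an inhibitor of matrix proteases, at 0.902, 1.00, 0.159 and 3.14 CPM in IP replicates 1 to 4 against 0.327, 0.135, 0.0465 and 0.186 CPM in input replicates 1 to 4. These overlapped, and Timp1 passed the filter on low counts mainly through its IP values, so its call (2.88 ± 0.90, adjusted p = 0.0227, edgeR) is a description. The call was lost without IP replicate 4 (1.96, adjusted p = 0.0795) and without input replicate 2 (2.77, 0.0678), 3 (2.58, 0.0649) or 4 (2.91, 0.0585). It was also lost with GC and length offsets, without (2.27, 0.0561) and with the replicate block (2.00, 0.0736), and in limma-voom (2.15, 0.149). Vim, the gene of the filament protein vimentin, which tanycytes express strongly, was at 13.6 ± 3.5 CPM in IP and 9.48 ± 1.8 CPM in input (0.52 ± 0.21, adjusted p = 0.0589, edgeR).

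Beside lists of other glia the astrocyte marker genes lay in a like range, and no test of a difference between lists was made. All 14 oligodendrocyte genes fell, with a median of -1.74. Of 10 oligodendrocyte precursor genes 9 fell and 0 rose (median -1.82), and of 13 microglia genes 11 fell and 0 rose (median -1.84). Of 14 tanycyte and ependymal genes 6 fell and 0 rose (median -1.20, or -1.47 without IP replicate 3), and of 11 endothelial genes 1, Itm2a, fell and 0 rose (median -0.39). The endothelial genes were near the floor, with input means of 0.325 to 5.32 CPM and SEs of 0.38 to 1.32. Their few calls therefore do not show that their level was kept in IP. Without IP replicate 3, 3 endothelial genes fell, with a median of -0.89. The endothelial median was -1.33 with a replicate block, again with 1 gene lower, and 0.036 without input replicate 3. General neuronal genes, which AgRP neurons also express, had 8 lower and 3 higher (Elavl4, Uchl1 and Syp) of 13 (median -0.65). Among 12 AgRP neuron markers 11 rose and 0 fell, with a median of 3.76. The counts without IP replicate 3 were 14 lower for oligodendrocyte, 9 lower for precursor and 12 lower for microglia genes, 6 lower and 1 higher for tanycyte and ependymal genes, 7 lower and 3 higher for neuronal genes and 11 higher for AgRP markers.

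**Figure D5:**
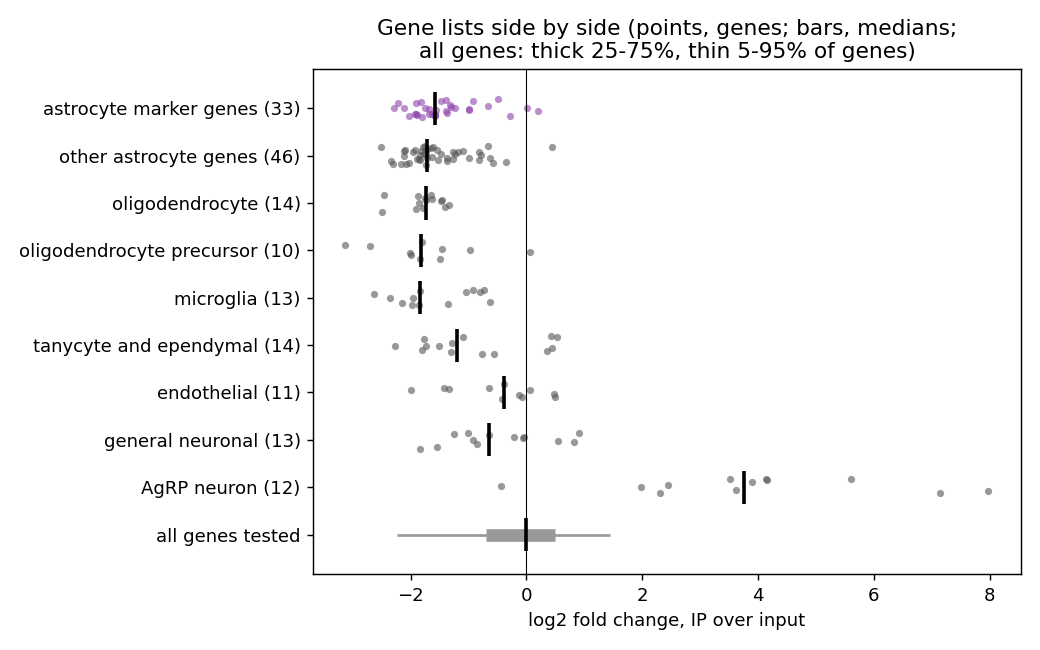
Log2 fold change of IP over input for the genes of each list (points) with the list's median (bars) and the number of genes tested, above the spread of all 17000 tested genes. Astrocyte marker genes (median -1.57) lie beside the oligodendrocyte (-1.74), precursor (-1.82) and microglia genes (-1.84), with AgRP neuron markers on the other side of 0 (median 3.76).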

How the data were processed

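The authors deposited 1 table of estimated counts for each gene, without normalization. The submitters' processing notes name Salmon 0.14.1 and GRCm38.p6. No source used here gives the annotation release, read trimming or strandedness. Groups and replicate numbers came from the sample titles. Estimated counts were rounded and tested in edgeR 4.0.16 (R 4.3.3): filterByExpr (minimum count 10), TMM factors, quasi-likelihood test without covariate, Benjamini-Hochberg adjustment over 17000 genes, threshold 0.05. Each SE was derived from the F statistic and the fold change. P-values measure the spread between pools of mice. Alternatives included DESeq2 1.42.0, limma-voom (limma 3.58.1), other scalings and filters, a replicate block, and offsets from splines on GC content and length. Coordinates, length (longest coding transcript) and GC came from GENCODE M21 (GRCm38), which held 98.8% of identifiers. The fit was tested on simulated counts. Counts without molecular identifiers make precision a matter of replicate spread.

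Members and lists were chosen with earlier results of these data known. All 33 members may be named, with Mff and Agrp; from the other astrocyte and reactive lists the 4 lowest and 4 highest by fold change, and from each further list 2 genes by p. Lrp3 and Dip2a and Cd44, Lcat, Chrdl1, Slc14a1, Cpt1a, Grm3, Elavl4, Uchl1 and Syp were named after their values were seen.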

Additional observations from a re-analysis of the deposited data

Results flagged for a closer look

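In 3 cases 1 library lay far from the other 3 of its fraction, by the size of its gap relative to the range of the 4 values. Slc1a2 stood at 588.55 CPM in IP replicate 3, against 388 to 416 CPM in the other IP libraries. Cst3 stood at 942.43 CPM in input replicate 4, against 625 to 669 CPM in the other input libraries. Acsbg1 stood at 38.4 CPM in input replicate 3, against 49.1 to 51.1 CPM in the other input libraries. Chance flags about 1 in 20 groups of values, and all 33 genes were examined in both fractions. IP replicate 3 also had the highest IP level for 24 of the 33 genes, a count given without a share over all tested genes.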

How the results depend on the processing

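Under 19 alternatives per gene the 30 falls kept their direction and their call, with 30 to 32 genes lower and 0 higher, and the median ran from -1.71 to -1.43. Upper quartile factors moved the median of all genes to -0.15 and the calls to 4384 lower and 3342 higher, against 3545 lower and 4171 higher with TMM; with library totals alone these were 3007 lower and 4832 higher. The summed level in IP was 36.6% to 40.9% of input under the 11 alternatives run for it, which did not include upper quartile factors. Mt3 was below 0 with RLE factors (-0.020), upper quartile factors (-0.12), the filter of 1 CPM (-0.0085), DESeq2 (-0.019) and GC and length offsets without (-0.79) and with the replicate block (-0.79), and ran from -0.029 to 0.12 without 1 library. Clu passed as lower with upper quartile factors (-0.42, adjusted p = 0.0155), DESeq2 (-0.32, 0.0233), limma-voom (-0.31, 0.0465), offsets and block (-0.44, 0.00021) and the block alone (-0.29, 0.00341).

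Same-numbered IP and input libraries had correlated deviations of 0.05 to 0.08, each the highest for its library, against -0.038 to -0.0016 for other pairs. None was over the limit of 0.1 set here, so the main fit did not take the numbers as pairs. The limit does not show that they are unpaired, and a shared pool would be ignored by that fit. With the replicate block 31 members were lower (median -1.58), and over all genes 3714 were lower and 3878 higher. The block moved the endothelial median to -1.33, the reactive list median to -1.20 and that of tanycyte and ependymal genes to -1.61. The AgRP marker list had 1 gene lower with RLE and with upper quartile factors, and the tanycyte list 1 higher with library totals alone. Without 1 library, AgRP markers lower ran from 0 to 1, reactive genes higher from 1 to 3 with a median of -1.21 to -0.62, tanycyte genes higher from 0 to 1 with a median of -1.47 to -0.82, and endothelial genes lower from 1 to 3. The endothelial median ran from -0.89 to 0.036, above 0 without input replicate 3, and the microglia median from -1.85 to -1.60. Of the family ratios, the 3 called ones cannot reach 0.05 with 3 against 4 libraries, where the smallest exact p is 0.0571. The causes were not tested.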
